A study of Sus scrofa with 12 samples.

Results

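The genes described here are 10 genes of the PIWI-interacting RNA (piRNA) pathway, namely PIWIL1, PIWIL2, PIWIL4, DDX4, MAEL, MOV10L1, TDRD1, TDRD5, TDRD6 and TDRD9. They were taken as the rows of the coding-gene table that carry these symbols, and they make up 10 of its 21674 genes. Testis tissue came from Hezuo (HZ) boars aged 30 days (Ha) and 120 days (Hb) and from Landrace (LC) boars aged 30 days (La) and 120 days (Lb). HZ is an early-maturing Chinese breed and LC was the control breed, and each group had 3 libraries that the labels describe as biological replicates. The ages and breeds were compared to follow testis development around puberty. The estimated counts of the coding genes summed to between 17165519 (Hb3) and 23758931 (Ha1) in a library.

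The piRNA pathway guards the genome of germ cells. PIWI proteins carry small RNAs that match transposons, cut the transposon transcripts and direct DNA methylation to transposon genes in the fetal germline. Later, in meiotic spermatocytes, a separate set of piRNAs is made in large amounts from dedicated loci, and loss of many of the pathway's genes in mice stops spermatogenesis and leaves males sterile.

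Levels of a gene between libraries are given as counts per 1000000 (CPM), with library sizes scaled by the trimmed mean of M values (TMM). Levels of different genes are compared as fragments scaled by gene length and library total (FPKM). A gene was called where its adjusted p was under 0.05 and its absolute log2 fold change was over 1. Fold changes are the second group over the first, given with a standard error (SE). The smallest p that permuting 3 and 3 libraries exactly can reach is 0.1, and smaller values come from the variance model of edgeR. Whole testis was used, so that fewer cells of a type and less RNA per cell cannot be told apart. The library Hb1 stood apart from Hb2 and Hb3 in markers of Leydig cells, whose summed level was 4061 CPM in Hb1, 331 CPM in Hb2 and 268 CPM in Hb3.

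With age, 7 of the 9 members tested in the main comparisons rose in HZ and 1 fell, and the counts were the same in LC. Of all genes tested, 28.2% were called higher and 23.2% lower at 120 days in HZ, and 27.5% were called higher and 20.1% lower in LC. This balance turned with upper-quartile factors, which gave 3967 genes higher and 5101 lower in HZ and 3968 and 4460 in LC. With total counts it turned in HZ (3978 and 5039) but not in LC (4159 and 4040). With relative log expression (RLE) factors it turned in neither breed. Under upper-quartile factors and under total counts, 6 members were called higher in HZ and 7 in LC. The median log2 fold change of the tested members was 2.68 in HZ and 2.95 in LC, beside -0.02 and 0.01 over all genes tested. PIWIL1, PIWIL2, DDX4, MAEL, TDRD5, TDRD6 and TDRD9 rose in both breeds and PIWIL4 fell in both. TDRD1 did not pass the test, and MOV10L1 was too often at 0 to pass the filter on low counts of the main comparisons.

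Among the PIWI proteins, which bind the piRNAs, PIWIL1 is the one loaded in meiotic and later germ cells. PIWIL1 stood at 9.18, 10 and 4.78 CPM in Ha1, Ha2 and Ha3 and at 506, 445 and 412 CPM in Hb1, Hb2 and Hb3. In LC it stood at 3.31, 3.47 and 3.62 CPM in La1, La2 and La3 and at 308, 320 and 298 CPM in Lb1, Lb2 and Lb3. The libraries of 120 days were far above those of 30 days in both breeds, with no overlap. PIWIL1 rose by a log2 fold change of 5.83 ± 0.31 (SE) in HZ (edgeR, adjusted p = 7.44e-06) and of 6.49 ± 0.12 in LC (adjusted p = 2.81e-08).

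PIWIL2 is present from early germ cells onwards and makes and amplifies piRNAs by cutting transcripts. It measured 109, 106 and 99.2 CPM in Ha and 213, 248 and 213 CPM in Hb. In La the values were 57.3, 52.3 and 52.4 CPM, and in Lb they were 187, 160 and 153 CPM. All libraries of 120 days lay above those of 30 days of the same breed, yet the distance was smaller than for PIWIL1. The log2 fold change of PIWIL2 was 1.10 ± 0.12 in HZ (edgeR, adjusted p = 0.000141) and 1.64 ± 0.11 in LC (adjusted p = 4.30e-06). In HZ it was no longer past the fold threshold with upper-quartile factors (log2 fold change 0.79), with total counts alone (0.80) or with limma on FPKM logged after adding 1 (0.78) or 0.1 (0.81), although the adjusted p stayed at or under 0.00166 over all alternatives. The length that the deposited count and FPKM of PIWIL2 imply was 3867 to 4107 nucleotides at 30 days and 3390 to 3643 at 120 days, with no overlap. It was 2790 to 3215 for PIWIL1 and 2543 to 3014 for PIWIL4, whose ages overlapped, and 1627 to 1629 for MAEL, so the FPKM of the PIWI genes and their shares carry this variation.

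PIWIL4 acts in the nucleus, where its mouse counterpart directs methylation of transposons in fetal germ cells. Its values were 10.8, 12.9 and 23.6 CPM in Ha and 2.14, 4.45 and 5.21 CPM in Hb. LC had 25.1, 23.8 and 16.2 CPM in La and 1.29, 2.02 and 0.462 CPM in Lb. PIWIL4 ran against the other members, with each library of 120 days below each library of 30 days in both breeds. It fell by 2.01 on the log2 scale in HZ (SE 0.43, edgeR, adjusted p = 0.00429) and by 4.08 in LC (SE 0.43, adjusted p = 5.82e-05). The annotation places FUT4, which codes for a fucosyltransferase, across 6258 bases at the low end of the PIWIL4 interval. FUT4 counts were 439, 418 and 346 in Ha, 65, 143 and 52 in Hb, 494, 500 and 508 in La and 247, 139 and 167 in Lb. The counts of these overlapping genes may not be independent, and their part in the PIWIL4 result was not tested.

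The shares of the PIWI genes differed between the ages. PIWIL2 made up 74.9 ± 4.45% (SD, n = 3) of the summed FPKM of the 4 PIWI genes in Ha and 60.3 ± 4.35% in La, against 28.6 ± 3.08% in Hb and 30.7 ± 2.36% in Lb. PIWIL1 made up 8.14 ± 2.85% in Ha and 5.10 ± 0.549% in La, against 70.7 ± 3.34% in Hb and 69.0 ± 2.37% in Lb. PIWIL4 held 16.9 ± 7.11% in Ha and 34.5 ± 4.84% in La, and under 1% in each library of 120 days. Shares of this kind are compared as a description, with no test. PIWIL3, the fourth PIWI gene, was close to absent, with at most 18 counts in a library and 0.11 FPKM.

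**Figure D1:**
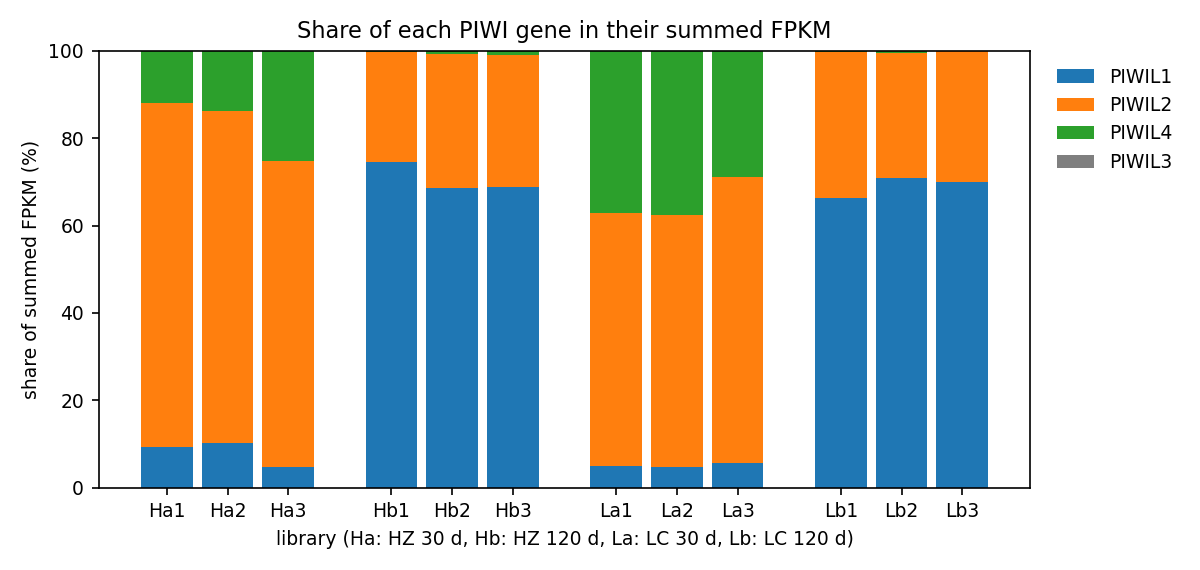
Share of PIWIL1, PIWIL2, PIWIL3 and PIWIL4 in their summed FPKM in each of the 12 libraries, as stacked bars in percent. PIWIL2 is the main part at 30 days (74.9% in Ha and 60.3% in La on average) and PIWIL1 at 120 days (70.7% in Hb and 69.0% in Lb).

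Among the helicases, DDX4 (VASA) is an RNA helicase of the germ granules and a common marker of germ cells. It measured 19.8, 22.7 and 19.2 CPM in Ha and 628, 510 and 570 CPM in Hb. La gave 11.9, 12.2 and 15.3 CPM and Lb 415, 366 and 390 CPM. No library of 30 days reached any library of 120 days. The log2 fold change of DDX4 was 4.79 ± 0.16 in HZ (edgeR, adjusted p = 1.72e-06) and 4.91 ± 0.15 in LC (adjusted p = 6.78e-08). By FPKM, DDX4 stood first among the members in Hb at 139 ± 5.99 FPKM (SD, n = 3) and level with MAEL in Lb, at 107 ± 9.58 FPKM.

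TDRD9, a helicase with a tudor domain that works with PIWIL4 in silencing transposons, stood at 34.7, 38.8 and 31.7 CPM in Ha and 162, 144 and 146 CPM in Hb. The LC values were 17.1, 16.1 and 17 CPM in La and 127, 119 and 107 CPM in Lb. The groups were tight and did not overlap between the ages. TDRD9 rose 4.30-fold in HZ (edgeR, SE 0.13 on the log2 scale, adjusted p = 1.33e-05) and 7.13-fold in LC (SE 0.11, adjusted p = 2.08e-07).

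MOV10L1, the helicase that binds piRNA precursors, was listed at 0 in each library of Ha and La, and also in Hb2 and Lb1. The other libraries of 120 days had 22.0 CPM (Hb1), 13.3 CPM (Hb3), 31.8 CPM (Lb2) and 24.1 CPM (Lb3). A library at 0 allowed up to 3 counts, which is 0.139 CPM in Hb2 and in Lb1. Thus Hb2 and Lb1 were split from libraries of their own group by a wide gap. The deposited counts of MOV10L1 were not whole in the 4 libraries where it was present, and the pattern of a 0 beside at least 100 counts in another library of the group was seen in 74 genes of Hb (0.593% of the 12482 genes with 100 counts) and 56 genes of Lb (0.438%). Of the neighbouring genes, PANX2 had 83, 94 and 94 counts in Hb and 108, 80 and 84 in Lb, so it was not at 0 in Hb2 or Lb1. MLC1 had 1, 4 and 3 in Hb and 32, 25 and 8 in Lb. Only PANX2 in Lb reached the 100 counts that the pattern asks for. Whether the 0 values in Hb2 and Lb1 mean a lack of transcript or a failed estimate was not tested, so no average, rank or fold change is given for this gene. It failed the filter on low counts in the main comparisons with age. It was called in each of the 9 settings that did test it in HZ (adjusted p 0.000400 to 0.0487) and each of the 9 in LC (2.00e-05 to 0.0348). The lowest of these came from leaving out Hb2 and Lb1, the libraries at 0. The next lowest were 0.0106 in HZ and 0.00765 in LC, both with DESeq2. As each library of 30 days was at 0, these calls rest on the libraries of 120 days where it was present, and no conclusion is drawn from them.

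The tudor proteins TDRD1, TDRD5 and TDRD6 bind methylated arginines of PIWI proteins and build the germ granules. TDRD6, which is needed for the chromatoid body of spermatids, rose from 15.5, 24.9 and 39.5 CPM in Ha to 763, 362 and 689 CPM in Hb. In LC it went from 29.1, 30.1 and 34.6 CPM in La to 447, 351 and 241 CPM in Lb. The libraries within Hb and within Lb differed widely, with Hb2 at close to the level of Lb, but the ages did not overlap. TDRD6 had a log2 fold change of 4.51 ± 0.45 in HZ (edgeR, adjusted p = 0.000112) and 3.49 ± 0.22 in LC (adjusted p = 2.66e-06).

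TDRD5, needed for the processing of piRNA precursors, had 14.5, 14.3 and 20 CPM in Ha and 108, 118 and 86.2 CPM in Hb. La had 9.68, 9.91 and 7.32 CPM and Lb had 61.7, 67.7 and 75.9 CPM. The ages were apart in both breeds. Its log2 fold change was 2.68 ± 0.20 in HZ (edgeR, adjusted p = 2.93e-05) and 2.95 ± 0.17 in LC (adjusted p = 1.44e-06).

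TDRD1, a scaffold for PIWIL2 in the mouse, was the tested member that did not pass the test with age in either breed. Its values were 56.6, 39.2 and 55 CPM in Ha, 56.5, 74.7 and 66.9 CPM in Hb, 48.5, 39.7 and 58.3 CPM in La and 50.5, 52.8 and 72.2 CPM in Lb. The ranges of all 4 groups overlapped, though Ha and Hb only at their ends. The log2 fold change with age was 0.39 ± 0.18 in HZ (edgeR, adjusted p = 0.0885) and 0.28 ± 0.19 in LC (adjusted p = 0.225), and its sign turned in some of the alternatives (lowest values -0.08 and -0.03).

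MAEL (maelstrom), a germ granule protein needed for piRNA production and transposon silencing, had 37.0, 36.8 and 37.8 CPM in Ha and 381, 293 and 301 CPM in Hb. It had 18.7, 22.3 and 19.3 CPM in La and 269, 273 and 236 CPM in Lb. The groups of 30 days were narrow and lay far below those of 120 days. MAEL rose by 3.13 ± 0.15 on the log2 scale in HZ (edgeR, adjusted p = 4.70e-06) and by 3.71 ± 0.12 in LC (adjusted p = 8.74e-08).

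**Figure D2:**
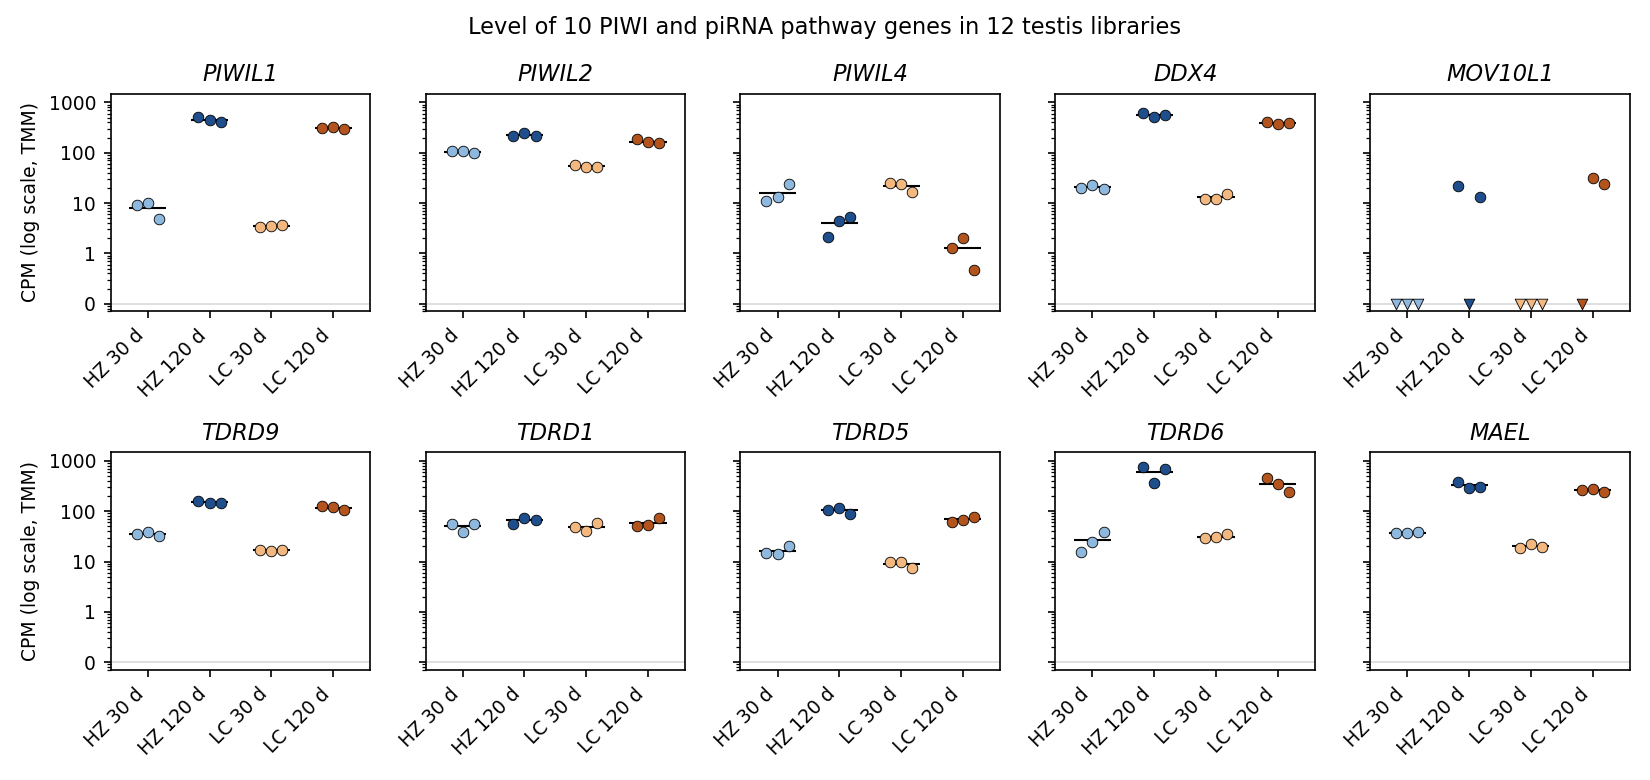
CPM of the 10 genes in each library (log axis, TMM-scaled), by breed and age, with a line at the mean of 3 libraries where none is at 0. Triangles on the lowest line mark libraries where MOV10L1 is listed at 0. PIWIL1 goes from under 11 CPM in each library of 30 days to at least 298 CPM in each of 120 days, and TDRD1 keeps between 39.2 and 74.7 CPM.

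Ordered by mean FPKM, PIWIL2 (21.6 ± 1.07) and MAEL (19.3 ± 0.211) led the members in Ha and in La (11.2 ± 0.250 and 10.2 ± 0.997). The ranges of PIWIL2 and MAEL were apart in Ha and overlapped in La. In Ha the next genes, DDX4, TDRD1, TDRD9, PIWIL4, TDRD6, PIWIL1 and TDRD5, overlapped each with its neighbour. At 120 days DDX4, MAEL and PIWIL1 led, with PIWIL1 at 94.0 ± 8.04 FPKM in Hb and 72 ± 2.51 FPKM in Lb. DDX4 and MAEL were apart in Hb, with MAEL at 109.89 to 131.71 FPKM, and overlapped in Lb, where MAEL had 107 ± 2.11 FPKM. PIWIL4 was the lowest in both groups of 120 days, at 0.847 ± 0.388 FPKM in Hb and 0.307 ± 0.216 FPKM in Lb, with MOV10L1 left out of the order.

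Between breeds at 30 days, 2 of 9 tested members were called lower in LC, PIWIL1 and TDRD9, and none was called higher. Of all genes tested, 4.01% were called lower in LC and 3.60% higher. The log2 fold change of La over Ha was -1.07 ± 0.11 for TDRD9 (edgeR, adjusted p = 0.00149) and -1.21 ± 0.29 for PIWIL1 (adjusted p = 0.0234). Without the fold threshold, a rule chosen after seeing the data, 6 members passed, all lower in LC, where 11.2% of all genes were. The 4 beside PIWIL1 and TDRD9 were PIWIL2 (-0.96 ± 0.08, adjusted p = 0.000632), MAEL (-0.89 ± 0.10, 0.00200), TDRD5 (-0.86 ± 0.19, 0.0178) and DDX4 (-0.65 ± 0.15, 0.0191). Over all alternatives the adjusted p of DDX4 reached 0.0709 and that of TDRD5 0.0660. The share of all genes without overlap between Ha and La was not counted. Ha and La did not overlap for these 6 genes, which adds no support, as the genes were picked by their adjusted p. These were also the members with an unadjusted p under 0.05, which 19.0% of all genes had while lower in LC, and DESeq2 and both limma settings likewise gave 6 at that level, all lower in LC. Ha and La overlapped for TDRD1 (-0.04 ± 0.18), PIWIL4 (0.46 ± 0.30) and TDRD6 (0.23 ± 0.29), and MOV10L1 was listed at 0 in both groups. Over all alternatives PIWIL4 lay between 0.25 and 0.86 (adjusted p 0.0288 to 0.613), TDRD6 between -0.04 and 0.62 (0.0733 to 0.907) and TDRD1 between -0.19 and 0.10 (0.488 to 0.962).

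The PIWIL1 difference between Ha and La passed the fold threshold but not the adjusted p without Ha1 (log2 fold change -1.10, adjusted p = 0.0768), Ha2 (-1.01, 0.0772), La1 (-1.16, 0.0721), La2 (-1.19, 0.0716) or La3 (-1.23, 0.0740), and with a replicate block (-1.14, 0.0532). Its adjusted p lay between 0.00152 and 0.0772 over all alternatives. TDRD9 lost the fold threshold without Ha2 (log2 fold change -0.99, adjusted p = 0.00635), and its adjusted p lay between 1.28e-12 and 0.0104 over all alternatives. Both genes were under the fold threshold with limma on log2(FPKM + 1) (-0.75 for PIWIL1 and -0.88 for TDRD9).

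At 120 days no member was called between the breeds by edgeR, whereas 1.20% of all genes were called lower in LC and 2.65% higher. The 628 genes behind these shares were 97 (without Lb2) to 1029 (without Hb2) with a library left out and 154 with a replicate block. An unadjusted p under 0.05 was reached by 7 of 10 members, all lower in LC, as was 11.9% of all genes at that level. None passed the adjusted p alone, which 2.22% of all genes did in that direction. DESeq2 also called 0, with 3 members at an adjusted p under 0.05, and both limma settings called 0, with 3 members at an unadjusted p under 0.05. The log2 fold change of Lb over Hb was -0.51 ± 0.13 for PIWIL1 (adjusted p = 0.0568), -0.50 ± 0.13 for DDX4 (0.0628), -0.39 ± 0.14 for PIWIL2 (0.145), -0.56 ± 0.17 for TDRD5 (0.0957), -0.31 ± 0.13 for TDRD9 (0.176) and -0.28 ± 0.14 for MAEL (0.251). The values of PIWIL4 (-1.60 ± 0.58, adjusted p = 0.138) and TDRD6 (-0.75 ± 0.30, adjusted p = 0.165) had wider errors than these. MOV10L1, with its 0 values in Hb2 and Lb1, did not pass the test (adjusted p = 0.806). PIWIL4 was called when all 12 libraries were fitted together (-1.63, adjusted p = 0.0443, with 0.0443 to 0.319 over all alternatives). TDRD6 was called, just past the fold threshold, without Hb2 (adjusted p = 0.0442, with 0.0442 to 0.375 over all alternatives). TDRD1 stood at -0.13 ± 0.20 (adjusted p = 0.721).

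**Figure D3:**
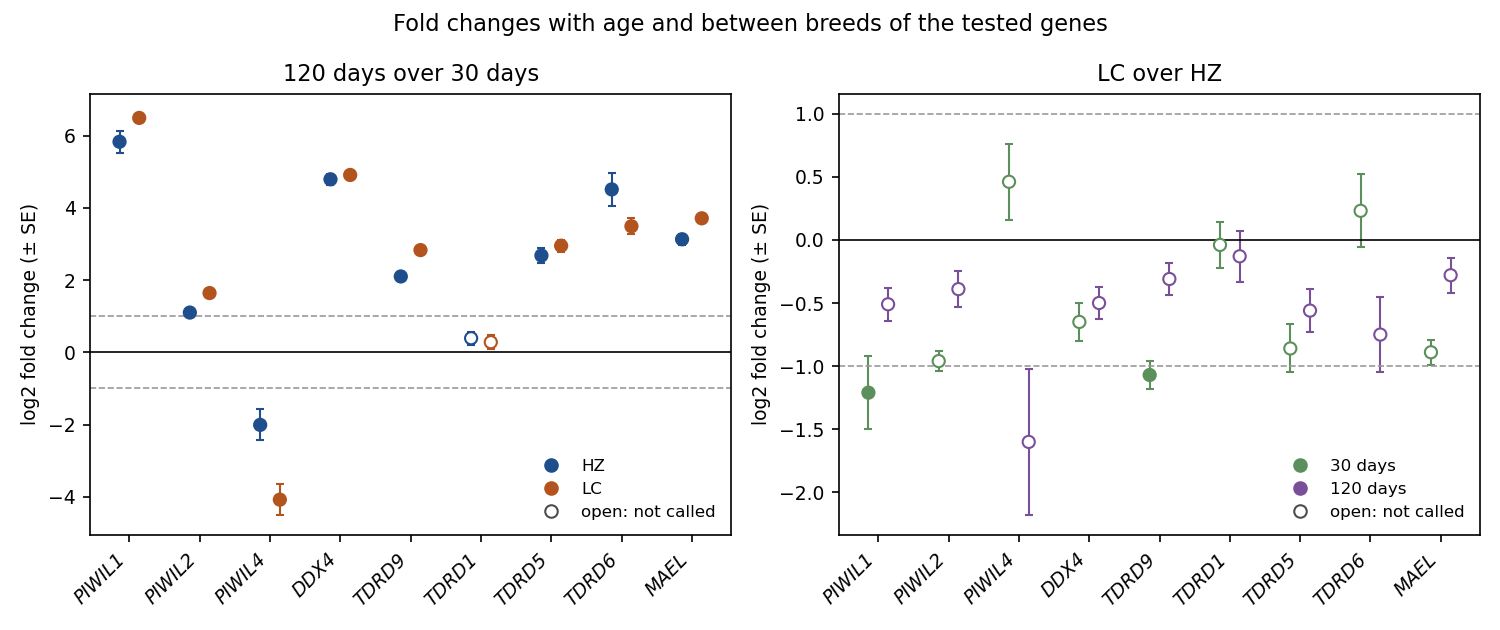
Log2 fold change with its SE of 9 members, for 120 over 30 days in HZ and LC and for LC over HZ at each age; filled points were called and dashed lines mark a log2 fold change of 1 either way. With age the rises reach 6.49 (PIWIL1 in LC) and PIWIL4 is the exception at -2.01 and -4.08.

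The interaction asks whether the change with age was of a different size in the breeds. No member was called for it by edgeR, where 3.51% of all genes were called with a positive value (LC minus HZ) and 1.62% with a negative value. At an unadjusted p under 0.05 there were 4 members, PIWIL2 (0.52 ± 0.16, adjusted p = 0.0663), MAEL (0.57 ± 0.17, 0.0732), PIWIL4 (-2.09 ± 0.66, 0.0770) and TDRD9 (0.72 ± 0.16, 0.0232), of which the positive values are larger rises in LC and that of PIWIL4 is a larger fall in LC. At that level 13.4% of all genes had a positive and 10.7% a negative value. TDRD9 passed the adjusted p, as did 4.56% of all genes with a positive and 2.68% with a negative value, and not the fold threshold. Its adjusted p lay between 0.00267 and 0.0631 over all alternatives, and was over 0.05 without Ha2 (0.72 became 0.64, adjusted p = 0.0631) and without Lb1 (0.66, adjusted p = 0.0511). DESeq2 called PIWIL4 (-2.14, adjusted p = 0.0133), as edgeR did without Hb1 (-2.35, adjusted p = 0.0449), with 0.0133 to 0.175 over all alternatives, while both limma settings called 0 members and had 3 at an adjusted p under 0.05. For MOV10L1 the interaction test cannot decide, as each library of Ha and La was at 0, and no value is given. The remaining interaction values were 0.65 for PIWIL1, 0.10 for DDX4, 0.26 for TDRD5, -1.03 for TDRD6 and -0.13 for TDRD1. The 4 comparisons share groups of libraries, so their values are given side by side without a measure of agreement.

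Of 31 other genes of the pathway, 30 were in the table, and KIF17 was not matched by its symbol. With age 20 of 27 tested were called higher and 2 lower in HZ, beside 28.2% and 23.2% of all genes. In LC 21 of 28 were called higher and 2 lower, beside 27.5% and 20.1% of all genes. These counts include GTSF1L, and SPOCD1 in LC, which passed the filter on low counts only through the group where they were high. The direction of their calls was fixed by that. The median log2 fold change of the tested pathway genes was 1.80 in HZ and 2.45 in LC, and it was the same with genes at the floor of 3 counts set to their bound. GTSF1L, a relative of the PIWI partner GTSF1, had 1, 1 and 2 counts in Ha and 575, 709 and 644 in Hb, and 0, 2 and 0 in La and 482, 567 and 374 in Lb. That is a ratio of 684 in HZ (95% exact interval 267 to 2514) and of 781 in LC (216 to 6458), for counting error only. The next highest in HZ were DDX25, a helicase of spermatids (4.58 ± 0.21), ADAD2 (4.15 ± 0.31) and TCFL5, a transcription factor of meiotic cells (3.70 ± 0.17). In LC they were FKBP6, a co-chaperone (4.80 ± 0.38), ADAD2 (4.66 ± 0.14) and DDX25 (4.55 ± 0.13).

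At the other end, DNMT3L, a partner of the DNA methyltransferases in the fetal germline, fell by 3.77 ± 0.95 in HZ (edgeR, adjusted p = 0.00913) and by 3.32 ± 0.52 in LC (adjusted p = 0.000541). It stood at 1.37 ± 0.788 CPM (SD, n = 3) in Ha and 0.103 ± 0.141 CPM in Hb, and at 1.98 ± 0.0812 CPM in La and 0.188 ± 0.139 CPM in Lb. The levels of 120 days were near the floor of 3 counts, so the sizes of these falls are uncertain. SPOCD1, which links PIWIL4 to DNA methylation in the mouse, had 22, 14 and 17 counts in La after rounding and 0 in each library of Lb, which is at least 5.34-fold lower against 3 counts per library (adjusted p = 0.000555). It was not tested in HZ. MOV10, the relative of MOV10L1 outside the germline, was lower at 120 days in HZ (-1.39 ± 0.17, adjusted p = 0.000316) and under the fold threshold in LC (-0.85 ± 0.09, adjusted p = 6.72e-05). MORC1 had -0.03 ± 0.37 in HZ and -0.37 ± 0.31 in LC, and PRMT5, which methylates PIWI proteins, had 0.04 ± 0.12 in HZ.

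Between breeds at 30 days 4 of 27 tested pathway genes were called lower in LC and none higher. They were TDRKH, a mitochondrial tudor protein that helps trim piRNAs (-1.69 ± 0.31, edgeR, adjusted p = 0.00936), RNF17 (-1.13 ± 0.11, 0.00126), PLD6, the mitochondrial nuclease of piRNA biogenesis (-1.13 ± 0.24, 0.0150), and TDRD12 (-1.05 ± 0.13, 0.00269). At 120 days edgeR called 0 of 27 between breeds. At an unadjusted p under 0.05 there were 10, of which 8 were lower in LC, as were 11.9% of all genes at that level. DESeq2 and limma on log2(FPKM + 0.1) called TDRD10, which was higher in LC. It had 10.8 ± 2.55 CPM (SD, n = 3) in Hb and 21.4 ± 7.12 CPM in Lb (edgeR, log2 fold change 1.04 ± 0.28, adjusted p = 0.0726). PLD6 was also called for the interaction, with 15.2, 13.4 and 9.59 CPM in Ha, 37.3, 28.9 and 38.6 CPM in Hb, 5.31, 7.39 and 4.89 CPM in La and 38.2, 48.6 and 38.9 CPM in Lb. Its levels did not overlap between breeds at 30 days and overlapped at 120 days. The interaction call was lost without Ha2 (1.36, adjusted p = 0.0525), La1 (1.32, 0.0534) or Lb2 (1.27, 0.0503), with adjusted p between 0.00121 and 0.0534 over all alternatives.

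The Argonaute and microRNA genes form the sister branch of small RNA silencing. Of 12 genes tested with age, 1 was called higher and 1 lower in each breed, with a median log2 fold change of -0.12 in HZ and -0.24 in LC. AGO2, the Argonaute that cuts its targets, rose by 2.08 ± 0.16 in HZ and 2.09 ± 0.16 in LC, and AGO4 fell by 1.56 ± 0.17 and by 2.03 ± 0.12. The other genes with the highest values in HZ were XPO5 (0.89), TNRC6C (0.42) and AGO1 (0.40), and those with the lowest were DROSHA (-0.58), TNRC6B (-0.51) and DICER1 (-0.36). In LC they were XPO5 (0.97), TARBP2 (0.12) and DROSHA (-0.01), and AGO3 (-0.74), TNRC6B (-0.53) and TNRC6A (-0.44). DGCR8 was level with TNRC6A at this rounding (-0.44). Between breeds DROSHA, the nuclease that starts microRNA processing, was called lower in LC at 30 days (-1.15 ± 0.16, edgeR, adjusted p = 0.00323) and edgeR, DESeq2 and limma called 0 of the list at 120 days, with 2 at an unadjusted p under 0.05 in edgeR.

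Markers of spermatocytes and spermatids were also higher at 120 days. The summed CPM of 8 spermatocyte markers was 42.5, 49.7 and 30.4 in Ha, 374, 316 and 312 in Hb, 24.2, 22.1 and 23.9 in La and 283, 237 and 279 in Lb, and all 8 were called higher at 120 days in each breed. HORMAD1 was the most abundant of them by mean FPKM over the 12 libraries, the measure used for each list, and none was at or under 3 counts in each library of a group. The summed CPM of 10 spermatid markers was 4.99, 5.55 and 6.49 in Ha, 6515, 5778 and 8236 in Hb, 8.87, 7.75 and 4.41 in La and 4186, 3445 and 3151 in Lb. Of 9 tested in each breed, 9 were called higher at 120 days, PRM1 was the most abundant, and TNP1 and SPACA3 in Ha and La and ACRV1 in Ha were at or under 3 counts in each library. Tested markers with so few counts at 30 days passed the filter on low counts only through the libraries of 120 days. Their calls could only be higher, so the count of 9 is given as a description. The 11 spermatogonial markers summed to 438, 435 and 356 CPM in Ha, 240, 343 and 282 in Hb, 249, 247 and 254 in La and 311, 290 and 292 in Lb. Of these, 2 rose and 7 fell with age in HZ, 3 rose and 5 fell in LC, UCHL1 was the most abundant, and NANOS2 was at or under 3 counts in each library of 120 days.

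At 30 days 3 of 8 spermatocyte markers (SYCP1, SYCP2 and HORMAD1) and 2 of 10 tested spermatogonial markers (DAZL and UCHL1) were called lower in LC, and none of either list was called higher. Of the spermatid markers, 4 of 5 tested had higher values in LC at 30 days, with a median log2 fold change of 0.73 and adjusted p of at least 0.139. The spermatid marker ACRV1, at 1, 2 and 0 counts in Ha and 9, 5 and 4 in La, had a ratio of 6.71 (95% exact interval 1.96 to 35.6, for counting error only). The 8 Sertoli cell markers summed to 1271, 1210 and 1665 CPM in Ha, 405, 578 and 468 in Hb, 2644, 3216 and 2917 in La and 604, 751 and 640 in Lb, with INHA the most abundant, and 3 (AMH, FSHR and INHA) were called higher in LC at 30 days. With age 4 of these 8 fell in each breed. At 120 days all 10 spermatid markers had lower values in LC, with a median log2 fold change of -0.80, and 3 passed the adjusted p (PRM1, ODF1 and AKAP4), of which AKAP4 was called (-1.10 ± 0.21, edgeR, adjusted p = 0.0283). Of the 8 spermatocyte markers 7 had lower values in LC at 120 days, with a median of -0.35, and of 10 tested spermatogonial markers 4 did, with a median of 0.18, and edgeR called 0 of either list, while DESeq2 called SPO11 and limma called 0. At an unadjusted p under 0.05 there were SYCP3 (0.76), SPO11 (-1.29) and MEIOB (-0.48) of the former and KIT (0.75) of the latter. The part of these markers in the results of the members was not tested.

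The somatic lists also moved with age and breed. The 7 Leydig cell markers, led by INSL3, summed to 10092, 9590 and 8754 CPM in Ha, 13688, 9336 and 11220 in La and 4913, 7401 and 3083 in Lb, and 4 fell with age in HZ and 5 in LC. The 10 markers of peritubular and stromal cells, led by COL3A1, summed to 4734, 4588 and 4511 CPM in Ha, 607, 353 and 255 in Hb, 6914, 6187 and 7619 in La and 3078, 3001 and 2569 in Lb. Of these, 8 fell with age in HZ, 5 fell and 1 rose in LC, and 5 were called higher in LC at 120 days. The 5 endothelial markers, led by VWF, summed to 670, 681 and 616 CPM in Ha, 173, 304 and 186 in Hb, 796, 628 and 757 in La and 315, 496 and 278 in Lb, and 5 fell in HZ and 3 in LC. The 5 macrophage markers, led by CSF1R, summed to 124, 101 and 106 CPM in Ha, 17.4, 20.1 and 10.7 in Hb, 122, 107 and 115 in La and 21.2, 37.8 and 35.9 in Lb, and 5 fell in HZ and 4 in LC. Between breeds at 120 days the fitted log2 fold changes of the somatic markers were positive, towards LC, while those of 9 of 10 members were negative. EMCN, an endothelial marker, was the exception in group means, at 1.24 ± 1.22 CPM in Hb and 1.18 ± 0.846 CPM in Lb, with a fitted value of 0.03. At 30 days HSD17B3 of the Leydig cell list was called higher in LC (1.15 ± 0.14, edgeR, adjusted p = 0.00232), and of the stromal markers 6 were higher and ACTA2 lower in LC at the adjusted p alone. PECAM1 was lower in LC at the adjusted p alone, and the median of the macrophage markers was 0.10. At 120 days the median log2 fold change was 0.51 for the 8 Sertoli cell markers, 1.95 for the 7 of Leydig cells, 1.66 for the 10 of peritubular and stromal cells, 0.83 for the 5 of endothelial cells and 1.22 for the 5 of macrophages. Beside the 5 stromal markers, edgeR called PECAM1 of the endothelial list and AIF1 of the macrophage list. It called 0 Sertoli and 0 Leydig cell markers, with 3 of each at an unadjusted p under 0.05, while DESeq2 called DHH, limma on log2(FPKM + 0.1) called DHH and GATA4, and limma on log2(FPKM + 1) called LHCGR. For the interaction edgeR called 5 of 10 stromal markers (ACTA2, COL1A1, COL1A2, COL3A1 and PDGFRB), PECAM1, AIF1 and the spermatogonial markers DAZL (1.53) and KIT (adjusted p = 0.0410) with positive values, and the spermatid markers PRM1 (-1.83) and ACRV1 (-2.96) with negative values. No marker of these somatic lists was at or under 3 counts in each library of a group, and their part in the members' results was not tested.

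For each member the gene with the closest profile over the 12 libraries was found by the root mean square difference of centred log2 CPM. It was RPL10L for PIWIL1 (0.19), FANCD2 for PIWIL2 (0.14), USP2 for DDX4 (0.16), RNF17 for TDRD9 (0.14), TSEN15 for TDRD1 (0.15), DMRT2 for MAEL (0.17), APC2 for TDRD5 (0.24), TRIM36 for TDRD6 (0.27), FHL1 for PIWIL4 (0.55) and WEE2 for MOV10L1 (2.17). The distance of WEE2 is wide, and MOV10L1 is at 0 in 8 libraries.

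In the Sscrofa11.1 annotation PIWIL1 lies on chromosome 14 (24729346 to 24760056), as do PIWIL2 (6560402 to 6632524) and TDRD1 (124526013 to 124575166). PIWIL4 (26679960 to 26751856) and TDRD5 (121245080 to 121337339) lie on chromosome 9, MAEL on chromosome 4 (83990266 to 84040465), MOV10L1 on chromosome 5 (509868 to 567429), TDRD6 on chromosome 7 (41468589 to 41485146) and DDX4 on chromosome 16 (34879701 to 34983701). TDRD9 is on a sequence not assigned to a chromosome and was not used for neighbours. Within 10 kb of the other 9 members there were 4 lncRNA transcripts, near 3 of them. LOC110260301 lies inside MAEL, LOC102165748 has 2 transcripts 4956 bases from DDX4, and an assembled transcript lies 3253 bases from TDRD1. None of these had more than 7 counts in a library, and none passed the filter on low counts, so that 0 were tested.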

How the data were processed

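RNA of 12 testis samples was measured as 12 libraries, 3 in each of 4 groups of breed and age, grouped by the labels. The members and gene lists were chosen with earlier results of these data known. Per the labels and methods, the authors filtered reads with fastp 0.18.0, removed ribosomal reads with Bowtie2 2.2.8, aligned what remained by HISAT2 2.1.0 on the pig genome (Sus scrofa 11.1) and assembled transcripts with StringTie 1.3.4. The authors deposited an estimated count for each gene and lncRNA transcript, which was not normalized before deposit, and the counting tool is not given in the sources used here. The deposited FPKM values were made by the authors by normalizing fragments for transcript length and library total. The authors also deposited exon positions of assembled lncRNAs.

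Estimated counts were rounded and tested over the whole coding-gene table by edgeR 4.0.16 quasi-likelihood F tests (R 4.3.3) on the 6 libraries of each comparison, after filterByExpr (minimum count 10) and TMM, with Benjamini-Hochberg adjustment over all genes tested. The interaction of breed and age used 12 libraries. The SE is the absolute log2 fold change over the square root of F. CPM uses TMM over 12 libraries, and profiles used log2 CPM with a prior count of 2. Groups with at most 3 counts in each library were at the floor. Implied lengths used the count, the FPKM and library totals estimated from assembled lncRNAs of known exon length. lncRNAs were placed by RefSeq positions of Sscrofa11.1. Alternatives were DESeq2 1.42.0, limma 3.58.1 on log2(FPKM + 1) and log2(FPKM + 0.1), other factors and filters, all 12 libraries in one fit, the replicate block and leaving out each library. Depth was 17165519 to 23758931 counts.

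The 10 members are named in each comparison, MOV10L1 without a fold change. Of the other pathway genes and the Argonaute list, the genes called between breeds or for the interaction are named, and for age the 4 highest and the 4 lowest. The most abundant marker of each list is named, and other markers named were chosen after their values were seen, as were TDRD10, PANX2, MLC1 and FUT4. Python 3.11.15 with pandas 2.3.3 and numpy 2.4.6 was used for tables, and matplotlib 3.10.9 for figures.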

Additional observations from a re-analysis of the deposited data

Results flagged for a closer look

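Of 51 tested members, other pathway genes and Argonaute list genes, 7 (13.7%) had a breed by age interaction with an adjusted p under 0.05 (edgeR, all 12 libraries), beside 7.25% of all 17332 genes tested. Markers of stromal, endothelial and germ cells and of macrophages were also called for the interaction, with 5 of 10 stromal markers positive, and their part in these results was not tested. This rule has no fold threshold and was chosen after seeing the data, and each of the 7 lost it under some of the 21 alternatives. PLD6, which also passed the fold threshold, had an interaction of 1.39 on the log2 scale (adjusted p = 0.0219, with 0.00121 to 0.0534 over the alternatives). TDRD9 had 0.72 (adjusted p = 0.0232, with 0.00267 to 0.0631). PRMT5 had 0.56 (adjusted p = 0.0311, with 0.00251 to 0.0778). RNF17 had 0.61 (adjusted p = 0.0497, with 0.0164 to 0.115) and lost it under 13 alternatives. GPAT2 had 0.84 (adjusted p = 0.0483, with 0.0168 to 0.107) and lost it under 12. The log2 fold change with age of these 5 genes was higher in LC than in HZ. TDRD3 rose less in LC (interaction -0.85, adjusted p = 0.0245, with 0.000724 to 0.0876). AGO3 had a log2 fold change with age of -0.08 in HZ and -0.74 in LC (interaction -0.68, adjusted p = 0.0491, with 0.00720 to 0.390), and lost it under 17 alternatives.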

How the results depend on the processing

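The count of 8 members called with age lay between 7 and 9 over all alternatives in HZ and between 8 and 9 in LC. With a library left out it lay between 8 and 9 in each breed. Each count of 9 includes MOV10L1, which the main comparisons did not test and from which no conclusion is drawn. With both limma settings in HZ, the count of 8 includes MOV10L1 in place of PIWIL2. The count of 2 members called between breeds at 30 days was 0 with limma on log2(FPKM + 1), 1 with the replicate block, 0 to 2 with a library left out, and 6 at the adjusted p alone, a rule chosen after seeing the data. At 120 days the 0 members became 1 with all 12 libraries in one fit and 0 to 1 with a library left out, and for the interaction the 0 became 1 with DESeq2, 0 to 1 with a library left out and 1 at the adjusted p alone. The causes were not tested. Of 800 member values under the alternatives, 13 changed sign, none of them called.

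Over all coding genes, the 1192 called between breeds at 30 days were 507 with limma on log2(FPKM + 1), 3333 at the adjusted p alone and 831 to 1466 with a library left out. The 628 at 120 days were 1224 with DESeq2, 1258 with all 12 libraries in one fit, 154 with the replicate block and 97 to 1029 with a library left out (without Lb2 97, Hb3 119, Lb3 139, Lb1 182 and Hb2 1029). The 890 with an interaction were 1378 with DESeq2, 1360 with limma on log2(FPKM + 0.1) and 437 to 1242 with a library left out (without Ha1 437, La3 461, La2 490, Ha2 501, Hb3 566, Lb2 575 and La1 577). With upper-quartile factors the median log2 fold change with age of all genes moved by -0.32 in HZ and -0.26 in LC, and with total counts by -0.30 and -0.17. The share of age calls that were higher then went from 54.8% to 43.7% (upper quartile) or 44.1% (total counts) in HZ and from 57.7% to 47.1% (upper quartile) or 50.7% (total counts) in LC, and for the interaction from 68.4% to 81.6% with total counts.

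The labels give no pairing of samples by replicate number, and the correlations of deviations of same-numbered samples lay between -0.02 and 0.05. The lncRNAs near members were called 0 times in each setting that gave a value. With at most 7 counts in a library, their levels were too low for this to decide whether they changed. Low counts limit PIWIL4 at 120 days, and the 0 values limit MOV10L1.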
